A study of Homo sapiens with 2 samples.

Results

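The genes described here, 9 regulators of breast cell identity, were compared across 2 cell lines: ESR1, PGR, GATA3, FOXA1, FOXC1, SOX4, SOX9, TFAP2A and TFAP2C. They were chosen by name as a group of hormone receptors and lineage transcription factors, and all 9 were found among the 30796 genes of the deposited matrix. The lines were MDAMB468 and CAL51, both labelled as triple-negative breast cancer, a class defined by the lack of oestrogen receptor, progesterone receptor and HER2 overexpression. Neither label names a treatment or a genetic change. Each line was 1 Drop-seq library, a method in which single cells are lysed in droplets with barcoded beads and each captured transcript is counted by a unique molecular identifier (UMI). With 1 library per line no test between lines was possible, and every interval below is a 95% interval that covers counting error only, with no variation between cultures.

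As background, oestrogen receptor alpha (ESR1) and progesterone receptor (PGR) are ligand-activated transcription factors that drive the hormone-responsive programme of luminal breast cells. FOXA1 and GATA3 open chromatin for the oestrogen receptor and hold luminal identity, whereas FOXC1 is a forkhead factor known as a marker of basal-like breast cancer. SOX9 and SOX4 are HMG-box factors, SOX9 being linked to mammary stem and luminal progenitor cells. TFAP2A and TFAP2C (AP-2 alpha and gamma) are paralogous factors of the ectoderm and the mammary gland, and TFAP2C acts on luminal genes including ESR1.

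The MDAMB468 library held 306 barcodes with 5501900 UMIs (median 10016.5 per barcode, range 2501 to 134213). The CAL51 library was described over 1346 barcodes with 16223444 UMIs (median 8635, range 2506 to 113702). A further 31 CAL51-labelled barcodes had sequences that also occurred in the MDAMB468 library and were left out, with 135240 UMIs. Satellites, barcodes 1 base away from another barcode of their own library that held 5 or more times as many UMIs, numbered 64 in MDAMB468 and 7 in CAL51. Satellites were kept, and values without them are given where they differ. Levels are CPM, UMIs per 1000000 UMIs of the line, and line differences are log2(CPM + 1) in MDAMB468 minus CAL51. The 3′ UMIs count transcript ends and were not divided by transcript length, so levels are compared between lines and not between genes.

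The epithelial label was checked on 6 listed markers, KRT8, KRT18, EPCAM, CDH1, KRT7 and KRT19. KRT8 stood at 764 CPM in MDAMB468 and 919 CPM in CAL51, KRT18 at 555 and 1555 CPM, and EPCAM at 867 and 283 CPM. CDH1 (E-cadherin) and KRT7 had 182 and 5243 UMIs in MDAMB468 but 7 and 0 in CAL51. KRT19 stood at 1934 CPM in MDAMB468 and 30.6 CPM in CAL51. CAL51 thus lacked CDH1 and KRT7 and was far lower in KRT19, while holding KRT8, KRT18 and EPCAM. Of 19 markers of lymphocytes, macrophages, endothelium, red cells and hepatocytes, 7 had no match by symbol in the matrix. The remaining 12 had 118 UMIs in MDAMB468, of which 102 were KDR, and 25 in CAL51; PTPRC (CD45) had 0 and 3. For HER2 itself, picked out because it defines the label, ERBB2 stood at 7.09 CPM (39 UMIs, 5.04 to 9.69) in MDAMB468 and 16.15 CPM (262 UMIs, 14.25 to 18.2) in CAL51.

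The 9 genes fell into 3 patterns. GATA3, SOX9 and TFAP2C were present in MDAMB468 and near or at 0 in CAL51. FOXC1, SOX4 and TFAP2A were present in both lines, with levels in CAL51 1.61 to 1.75 times those in MDAMB468. ESR1 and PGR had at most 3 UMIs in either line, and FOXA1 was low in both, with 6 and 36 UMIs. By a threshold of 2-fold on the log2 scale, 3 of the 9 were higher in MDAMB468, where 15.8% of the 15347 genes with at least 20 UMIs were, and 0 were higher in CAL51, where 18.6% were. Of the 9, 7 had at least 20 UMIs, and their median log2 difference was -0.62 against -0.13 over all such genes.

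**Figure D1:**
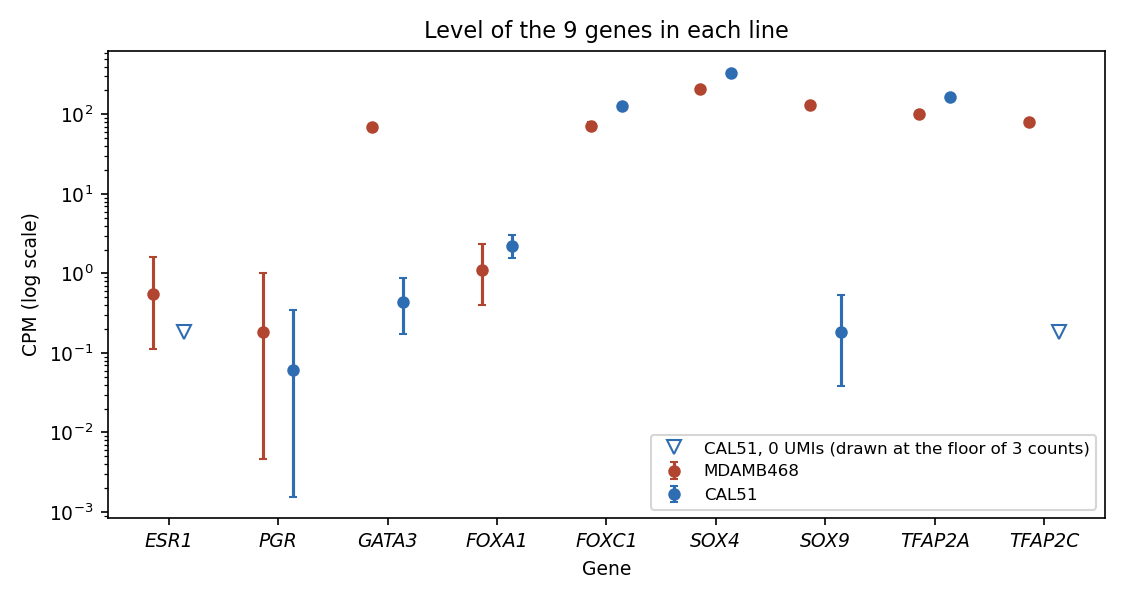
Level of each gene in CPM (log scale) in MDAMB468 (red) and CAL51 (blue), with exact Poisson 95% intervals of the counts; open triangles mark genes with 0 UMIs in CAL51, drawn at the floor of 3 counts. GATA3, SOX9 and TFAP2C are separated by orders of magnitude, FOXC1, SOX4 and TFAP2A lie close together with CAL51 above, ESR1 and PGR lie near the floor, and FOXA1 lies above it at 1.09 and 2.22 CPM.

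Upstream sequence is shown for GATA3, from the first pattern, and for FOXC1 and TFAP2A, which had counts in both lines, because TFAP2A and TFAP2C encode AP-2 factors, whose recognition motif can be looked for there. RefSeq promoter entries (GRCh38.p14) were found for 7 of the 9 genes; SOX9 and TFAP2C had no entry. Each run is the 250 bases before the outermost RefSeq start, 5′ to 3′ on the strand of the gene, with the AP-2 motif GCCNNNGGC in capitals. GATA3 is chr10:8045083-8045332 (plus strand), FOXC1 chr6:1609665-1609914 (plus) and TFAP2A chr6:10419660-10419909 (minus).
GATA3: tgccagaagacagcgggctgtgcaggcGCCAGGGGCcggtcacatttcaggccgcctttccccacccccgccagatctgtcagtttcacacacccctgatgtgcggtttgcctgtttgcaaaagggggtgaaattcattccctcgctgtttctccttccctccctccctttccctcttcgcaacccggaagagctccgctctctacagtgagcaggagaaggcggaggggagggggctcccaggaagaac
FOXC1: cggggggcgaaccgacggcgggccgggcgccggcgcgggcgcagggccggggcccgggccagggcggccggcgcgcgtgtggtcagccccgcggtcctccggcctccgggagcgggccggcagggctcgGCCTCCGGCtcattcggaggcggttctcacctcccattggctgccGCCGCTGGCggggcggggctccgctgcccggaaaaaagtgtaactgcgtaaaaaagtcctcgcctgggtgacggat
TFAP2A: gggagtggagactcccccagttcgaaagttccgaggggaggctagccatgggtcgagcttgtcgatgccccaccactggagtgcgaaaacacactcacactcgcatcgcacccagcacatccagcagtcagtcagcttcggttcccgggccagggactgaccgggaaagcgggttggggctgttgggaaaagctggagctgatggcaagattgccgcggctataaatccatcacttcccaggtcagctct
FOXC1 held 2 matches, GATA3 held 1 and TFAP2A held 0, as did the windows of ESR1, PGR, FOXA1 and SOX4, where 19.8% of 35116 promoter entries of this length held at least 1. The motif reads the same on both strands. The windows of SOX4, FOXA1 and PGR lie inside the GENCODE gene models and are not printed. Base composition differed, with G or C at 76.8% of bases for FOXC1, 60.8% for GATA3, 59.6% for TFAP2A and 48.8% for SOX4, against a median of 58% over all entries. A further 3 motifs were searched on both strands and had 0 matches in the windows of the 7 genes. These were the GATA motif AGATAA, held by 9.17% of all entries, the forkhead motif TGTTTAC, held by 2.98%, and the SOX motif AACAATG, held by 2.87%. Such a match is a string of letters and not a measured binding site.

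The steroid hormone receptors were almost without counts. ESR1 (ENSG00000091831; GENCODE 29 on GRCh38, chromosome 6, 151656691 to 152129619) had 3 UMIs in 2 of 306 MDAMB468 barcodes (0.545 CPM, interval 0.112 to 1.59) and 0 UMIs in CAL51, where the upper limit was 0.227 CPM. PGR (ENSG00000082175; chromosome 11, 101029624 to 101130524) had 1 UMI in each line. Both genes are at or under the floor of 3 counts, so no fold is given. At this depth no barcode held more than 2 UMIs of ESR1 or more than 1 of PGR. With every barcode thinned to 2500 UMIs, neither gene was seen in any barcode. Taking 3 counts as the limit that a count of 0 allows, the share of positive barcodes is up to 0.98% in MDAMB468 and 0.223% in CAL51, and the exact binomial upper bounds are 1.198% and 0.2737%. On the chromosome, SYNE1 overlaps ESR1 on the opposite strand and had 3 and 374 UMIs, while ESR1 itself had 0 in CAL51.

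FOXA1 (ENSG00000129514; chromosome 14, 37589984 to 37596059) had 6 UMIs in MDAMB468, which is 1.09 CPM (0.4002 to 2.37), and 36 in CAL51, which is 2.22 CPM (1.55 to 3.07). These UMIs were scattered over 4 and 35 barcodes, with at most 3 and 2 UMIs in any barcode. The ratio was 2.03 in favour of CAL51 with an interval of 0.849 to 5.91, so the lines were not distinguishable at this depth. At 2500 UMIs, FOXA1 was seen in 1 of 306 barcodes (0.327%, interval 0.00827% to 1.81%) and 10 of 1346 (0.743%, interval 0.357% to 1.36%). TTC6, which overlaps FOXA1 on the opposite strand, had 0 and 11 UMIs.

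GATA3 (ENSG00000107485; chromosome 10, 8045378 to 8075203) encodes the zinc-finger factor of luminal differentiation. In MDAMB468 its 382 UMIs (69.4 CPM, interval 62.6 to 76.8) were spread over 131 of 306 barcodes. CAL51 had 7 UMIs (0.431 CPM, interval 0.174 to 0.889), each in a barcode of its own. The level in MDAMB468 was 161-fold higher (interval 77.4 to 403; log2 difference 5.62, or 5.07 with the shared barcodes kept in CAL51). At equal depth GATA3 was seen in 43 of 306 MDAMB468 barcodes (14.1%, interval 10.4% to 18.5%) and 3 of 1346 CAL51 barcodes (0.223%, interval 0.046% to 0.65%). GATA3-AS1, which overlaps GATA3 on the opposite strand, had 27 and 0 UMIs.

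SOX9 (ENSG00000125398; chromosome 17, 72121020 to 72126420) had the largest difference of the 9 genes on the log2(CPM + 1) scale, 6.82. MDAMB468 held 729 SOX9 UMIs in 190 of 306 barcodes, a level of 132.5 CPM (123.1 to 142.5). CAL51 had 3 UMIs in 3 barcodes (0.185 CPM, interval 0.0381 to 0.54). The level in MDAMB468 was 716.5 times that in CAL51 (244 to 3483). At equal depth 80 of 306 MDAMB468 barcodes held SOX9 (26.1%, interval 21.3% to 31.4%) and 0 of 1346 CAL51 barcodes did, which allows up to 0.223% by the same limit of 3 counts (exact upper bound 0.2737%). SOX9-AS1, on the opposite strand, had 42 and 5 UMIs.

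TFAP2C (ENSG00000087510; chromosome 20, 56629302 to 56639283) was counted 442 times in 144 of 306 MDAMB468 barcodes, at 80.3 CPM (73.0 to 88.2), and 0 times in CAL51. Against the floor of 3 counts in the CAL51 library it was at least 434-fold higher in MDAMB468, and the exact lower bound of the ratio, which counts the sampling error of both lines, was 352. At equal depth it was seen in 39 of 306 barcodes (12.7%, interval 9.22% to 17.0%) against 0 of 1346. In contrast to its paralog TFAP2A, TFAP2C was therefore seen in 1 of the 2 lines only.

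TFAP2A (ENSG00000137203; chromosome 6, 10393186 to 10419659) was counted 549 times in MDAMB468, at 99.8 CPM (91.6 to 108.5), and 2655 times in CAL51, at 164 CPM (157.5 to 170.0). CAL51 thus stood 1.64-fold higher (1.496 to 1.801), a log2 difference of -0.71. At equal depth the shares were 73 of 306 barcodes (23.9%, interval 19.2% to 29.04%) and 437 of 1346 (32.5%, interval 29.97% to 35.0%). These intervals did not overlap, but those after thinning to 1000 UMIs did (6.17% to 12.95% and 12.72% to 16.56%). A single MDAMB468 barcode of 134213 UMIs held 62 of the 549 UMIs (11.3%). Without the deepest barcode of each line, an alternative chosen after seeing the data, the log2 difference was -0.85. The antisense genes TFAP2A-AS1 (16 and 98 UMIs) and TFAP2A-AS2 (9 and 55 UMIs) overlap TFAP2A. No source used here says whether counting used the strand. Reads of TFAP2A, GATA3, SOX9, FOXA1, ESR1, PGR and SOX4 and of their opposite-strand neighbours therefore cannot be told apart. The neighbour of PGR, PGR-AS1, had 2 and 1 UMIs, beside 1 and 1 of PGR, and that of SOX4, AL512380.2, had 1 and 1.

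FOXC1 (ENSG00000054598; chromosome 6, 1609972 to 1613897), the basal-like marker, was present in both lines. Its level was 72.3 CPM (65.4 to 79.8) from 398 UMIs in MDAMB468 and 126.5 CPM (121 to 132) from 2053 UMIs in CAL51. CAL51 was 1.75-fold higher (interval 1.57 to 1.95; log2 difference -0.80). At equal depth 48 of 306 MDAMB468 barcodes (15.7%, interval 11.8% to 20.25%) and 381 of 1346 CAL51 barcodes (28.3%, interval 25.9% to 30.8%) were positive. The CAL51 share depended on the random draw. The exact expectation of the same thinning was 25.6% in CAL51, just below the interval of the draw, and 15.15% in MDAMB468. The spread and co-detection of FOXC1 given below rest on the same draw.

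SOX4 (ENSG00000124766; chromosome 6, 21592768 to 21598619), a SOX factor widely expressed in progenitor cells and carcinomas, reached 207 CPM (195 to 220) with 1140 UMIs in MDAMB468 and 333 CPM (324 to 342) with 5398 UMIs in CAL51. The CAL51 level was 1.61 times as high (1.51 to 1.71), a log2 difference of -0.68. At equal depth it was seen in 105 of 306 (34.3%, interval 29.01% to 39.9%) and 678 of 1346 barcodes (50.4%, interval 47.7% to 53.1%). The log2 differences of TFAP2A, FOXC1 and SOX4 lay between -0.94 and -0.57 under every scaling, pseudocount and barcode choice run, so their sign was stable and none reached 2-fold. Relative to the median of all genes they were -0.58, -0.67 and -0.55.

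**Figure D2:**
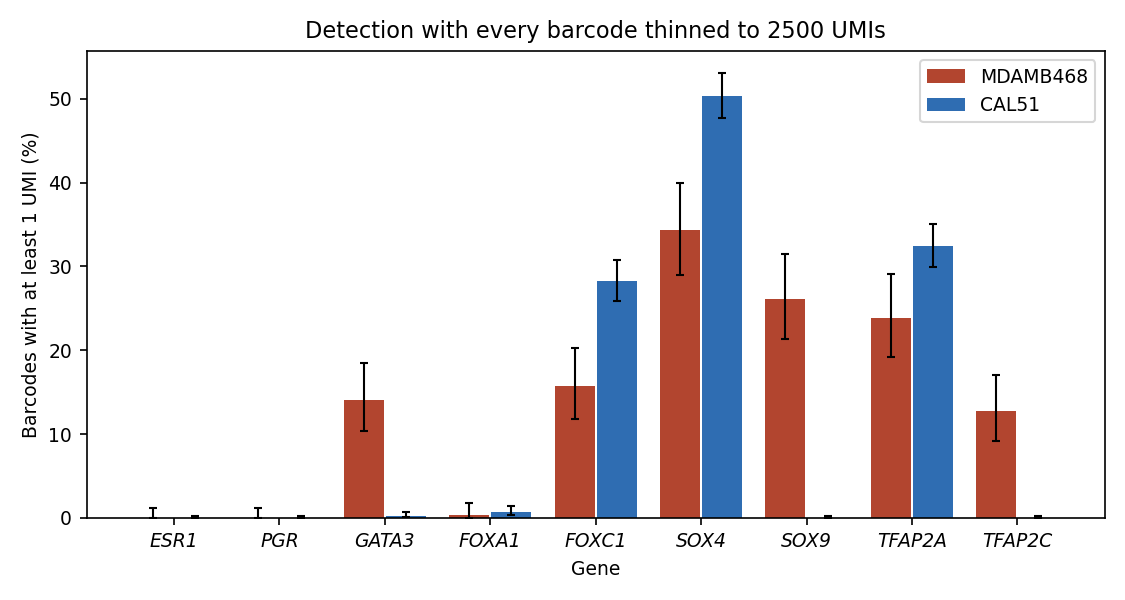
Share of barcodes with at least 1 UMI after every barcode was thinned to 2500 UMIs, in MDAMB468 (red, 306 barcodes) and CAL51 (blue, 1346 barcodes), with exact binomial 95% intervals. GATA3, SOX9 and TFAP2C are seen in 12.7% to 26.1% of MDAMB468 barcodes and in at most 0.223% of CAL51 barcodes, while SOX4, FOXC1 and TFAP2A are seen more often in CAL51.

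Thinning lowers every share, and none is an estimate of the cells that express a gene. Unthinned, SOX9, GATA3 and TFAP2C were seen in 62.1%, 42.8% and 47.1% of MDAMB468 barcodes, against 0.223%, 0.52% and 0% of CAL51 barcodes. SOX4, FOXC1 and TFAP2A were then seen in 75.2%, 50.65% and 59.5% of MDAMB468 barcodes and in 78.4%, 55.35% and 70.4% of CAL51 barcodes. Both lines express these 3 genes, so neither gives a level of free RNA for them, and the part of free RNA in their shares was not tested.

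How evenly the transcripts were spread over barcodes was described by the Fano factor, the variance over the mean, at 2500 UMIs, which is 1 for pure counting noise. SOX4 in CAL51 had a Fano factor of 1.585 at a mean of 0.894 UMIs, and 126 of 1346 barcodes (9.36%) held 3 or more SOX4 UMIs while 668 held 0. Among the 267 genes of that line with a mean within 1.25-fold, the median Fano factor was 1.10 and 13 genes (4.87%) had a higher one. In MDAMB468 the Fano factor of SOX4 was 1.07 at a mean of 0.441, close to the median of 1.05 of its 462 neighbours by mean. FOXC1 in CAL51 had 1.19 at a mean of 0.364 (median of 641 neighbours 1.07, 9.20% higher), whereas TFAP2A in CAL51 had 1.04 at a mean of 0.399 (median of 577 neighbours 1.07). Thus, in CAL51, SOX4 was spread less evenly than most genes of its level and TFAP2A was not. For SOX9 in MDAMB468 the Fano factor was 1.14 with all barcodes (median of 645 neighbours 1.05, 20% higher) and 0.969 without satellites. TFAP2A in MDAMB468 also had 1.14 (median of 696 neighbours 1.05, 18.7% higher), and 1.06 without satellites. Leaving satellites out raised the Fano factors of TFAP2C and SOX4 in MDAMB468, to 1.31 and 1.09. TFAP2C in MDAMB468 had 1.23 at a mean of 0.154 UMIs (median of 1094 neighbours 1.03, 4.84% higher), with 6 of 306 barcodes at 2 UMIs and 1 at 3 or more. GATA3 had 1.09 at a mean of 0.16 (median of 1003 neighbours 1.03, 28.9% higher).

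**Figure D3:**
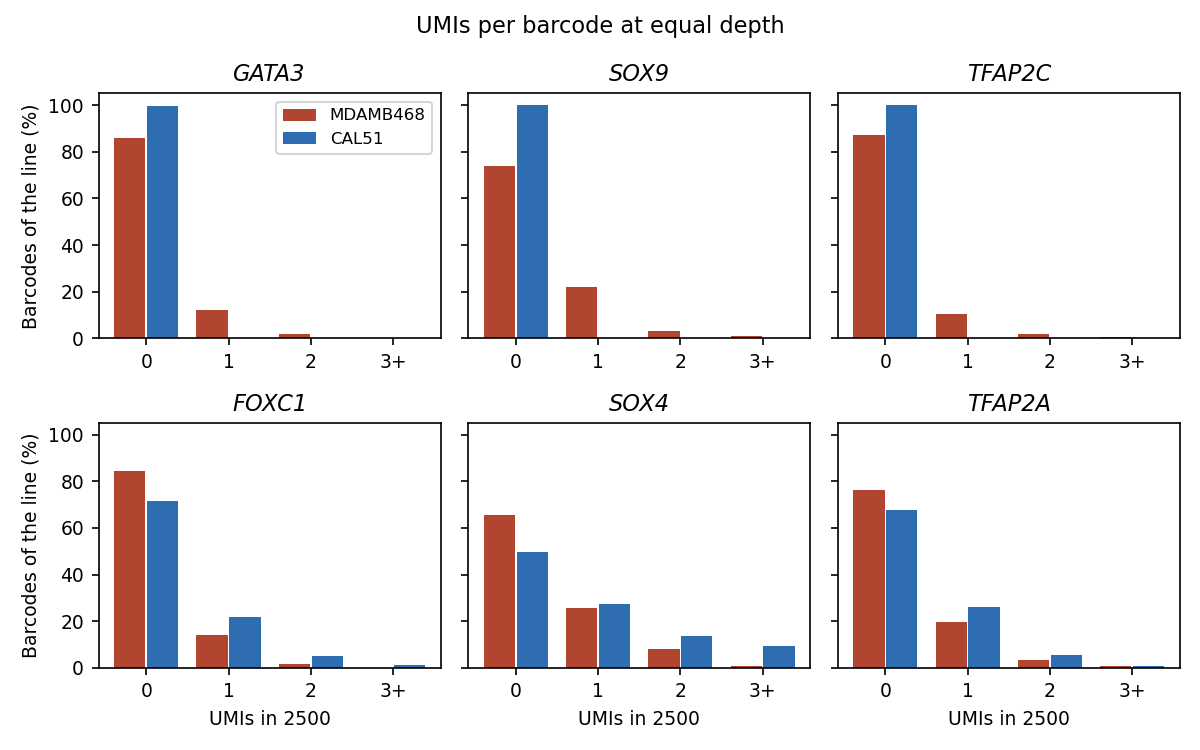
Share of barcodes (%) with 0, 1, 2 or at least 3 UMIs of each gene at 2500 UMIs per barcode, in MDAMB468 (red) and CAL51 (blue). SOX4 in CAL51 has the widest spread, with 9.36% of barcodes at 3 or more UMIs, while no CAL51 barcode holds SOX9 or TFAP2C.

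GATA3, SOX9 and TFAP2C were counted in overlapping sets of MDAMB468 barcodes, an overlap that depended on barcode depth. Unthinned, 76 of 306 MDAMB468 barcodes (24.8%) held all of GATA3, SOX9 and TFAP2C, 73 held 2 of them, 91 held 1 and 66 held 0. At equal depth 4 barcodes held all 3 and 131 of 306 held at least 1. SOX9 was seen in 18 of the 43 GATA3-positive barcodes (41.9%, interval 27.0% to 57.9%) and in 62 of the 263 others (23.6%, interval 18.6% to 29.2%). These intervals overlap, and so did those of the other pairs among the 15 compared in MDAMB468 and the 3 compared in CAL51. In CAL51, SOX4 was seen in 209 of 381 FOXC1-positive barcodes (54.9%, interval 49.7% to 59.9%) and in 469 of 965 others (48.6%, interval 45.4% to 51.8%). No gene with at least 500 UMIs in the line reached a rank correlation of 0.3 with SOX4, SOX9 or TFAP2A over MDAMB468 barcodes, or with FOXC1, SOX4 or TFAP2A over CAL51 barcodes. Over 1346 CAL51 barcodes the highest values were 0.249 for SOX4, 0.201 for FOXC1 and 0.094 for TFAP2A. The same gene gave the values of SOX4 and FOXC1. Without satellites the highest in MDAMB468 was 0.268, for TFAP2A over 242 barcodes. All lay under the limit of 0.3, and whether any exceeds what such sparse counts give was not tested.

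Levels were also followed by barcode depth, since 54 of the 77 shallowest MDAMB468 barcodes were satellites. SOX4 stood at 200 to 215 CPM in 3 of 4 depth classes of MDAMB468 and at 189.7 CPM in the third of them, below the 4 CAL51 classes (314 to 381 CPM). TFAP2A stood at 167 CPM (interval 119 to 227) in the shallowest MDAMB468 class, within the range of the CAL51 classes (158 to 170.1 CPM), and at 72.7 to 105 CPM in the other classes. In the 64 satellites TFAP2A was at 176 CPM (interval 125 to 242), against 96.7 CPM (interval 88.5 to 105) in the remaining 242 barcodes. GATA3 moved the other way, with 32.4 CPM in satellites (interval 13.04 to 66.8) and 70.9 CPM elsewhere (interval 63.9 to 78.5), intervals that overlap. The part of the satellites in the shares at equal depth was measured by leaving them out, which changed no share of the 9 genes by more than its interval.

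**Figure D4:**
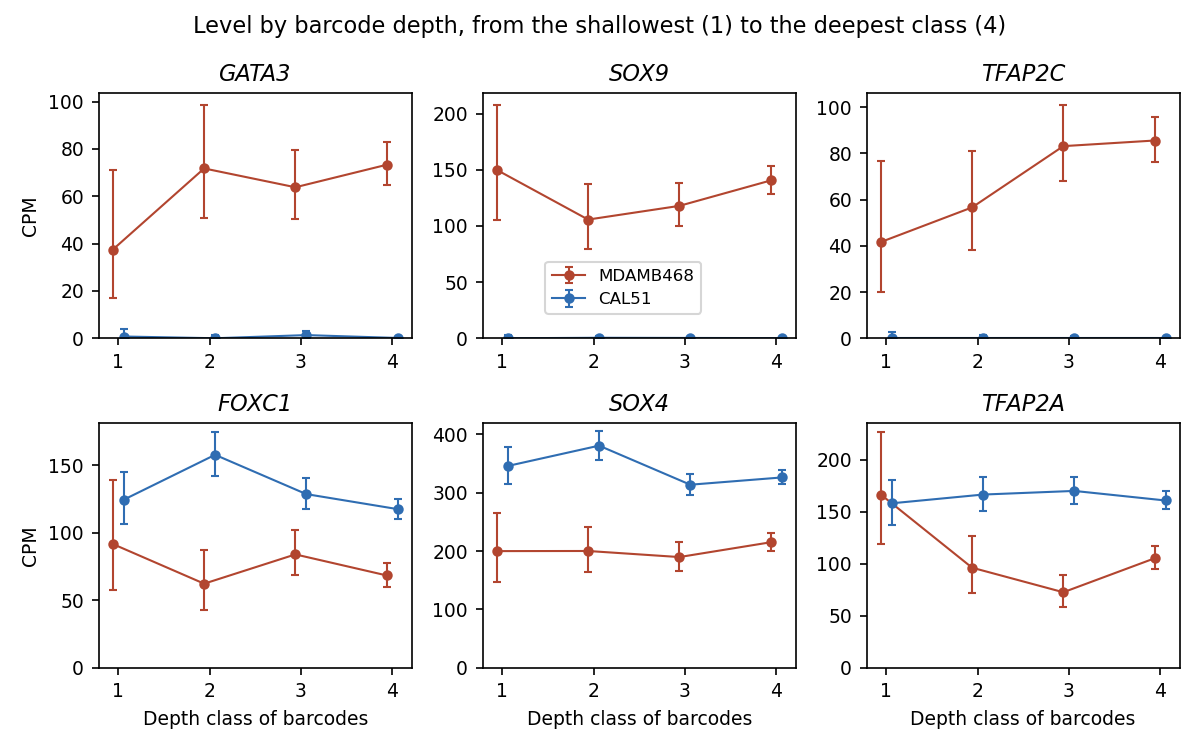
CPM of 6 of the genes in 4 classes of 76 or 77 (MDAMB468) and 336 or 337 (CAL51) barcodes ordered by total UMIs, from shallowest (1) to deepest (4), with Poisson 95% intervals, MDAMB468 in red and CAL51 in blue. GATA3, SOX9 and TFAP2C stay near 0 in every CAL51 class, and TFAP2A meets the CAL51 level only in the shallowest MDAMB468 class.

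Relatives of the 9 genes were called in both directions. Of 30 steroid receptor, GATA, FOXA, FOXC, SOX and AP-2 relatives, 7 had no match by symbol in the matrix and 11 had at least 20 UMIs. Of these 11, 3 were at least 2-fold higher in MDAMB468, 5 in CAL51 and 3 in neither, beside 15.8% and 18.6% of all genes, with a median log2 difference of -0.78. SOX11, a factor of neural and other progenitors, had 222 UMIs in MDAMB468 and 0 in CAL51, at least 218-fold higher. SOX17, an endoderm and endothelial factor, had the reverse pattern with 0 and 2410 UMIs (149 CPM in CAL51), at least 272-fold higher in CAL51. SOX6 had 0 and 575 UMIs, at least 65.0-fold higher in CAL51, and SOX5 1 and 707, 240 times as high there (42.9 to 9484). Each line thus held SOX genes that the other lacked, while SOX4, SOX12 (73 and 126 UMIs) and SOX13 (30 and 41 UMIs) were counted in both.

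Among the receptor relatives, NR3C1, the glucocorticoid receptor, was 20.5-fold higher in MDAMB468 (146 and 21 UMIs, interval 12.9 to 34.1). ESRRA, the oestrogen-related receptor of mitochondrial metabolism, which does not bind oestrogen, was 4.57-fold higher there (307 and 198 UMIs, interval 3.81 to 5.49). With every gene of at least 1 UMI counted, 5 rather than 3 relatives were higher in MDAMB468, where 9.8% of all genes then were.

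Luminal and oestrogen response genes did not move as a block. Of the 26 with at least 20 UMIs among 32 listed, 10 were at least 2-fold higher in MDAMB468 (15.8% of all genes), 9 in CAL51 (18.6%) and 7 in neither, with a median log2 difference of 0.39. KRT19, a luminal keratin, stood at 1934 CPM in MDAMB468 and 30.6 CPM in CAL51 (63.25-fold, interval 57.8 to 69.35). Its log2 difference of 5.94 was 5.20 with the 31 shared barcodes kept in CAL51. RERG, a Ras-like growth inhibitor, was 74.8-fold higher in MDAMB468 (279 and 11 UMIs, interval 41.2 to 152). MLPH, melanophilin, was counted 144 and 3 times, 141.5-fold higher in MDAMB468 (47.5 to 694). In the other direction, CA12, a carbonic anhydrase known as an oestrogen receptor target, was 151-fold higher in CAL51 (2 and 888 UMIs, 41.6 to 1245). AGR2, a disulphide isomerase of secretory cells, was at 20.5 and 380 CPM, 18.5-fold higher in CAL51 (interval 15.3 to 22.5). ERBB4, a receptor of the EGFR family, had 1 and 240 UMIs (ratio 81.4, interval 14.5 to 3228). ESR1 itself had 3 UMIs in MDAMB468 and 0 in CAL51, at or under the floor of 3 counts in both lines. A link of the listed genes to ESR1 was not tested.

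Basal-like and luminal progenitor genes, by contrast, were mostly higher in MDAMB468. Of the 21 with at least 20 UMIs among 25 listed, 16 were at least 2-fold higher in MDAMB468 (15.8% of all genes), 2 in CAL51 (18.6%) and 3 in neither, and the median log2 difference was 3.63. With at least 100 UMIs required, fewer of the listed genes were counted, and 10 were higher in MDAMB468, as were 12.2% of all genes at that minimum. KRT5, a basal keratin, had 2224 and 0 UMIs, at least 2186-fold higher. SFRP1, a secreted Wnt inhibitor, had 674 and 3 UMIs (ratio 662.5, interval 226 to 3220), and VGLL1, a TEAD cofactor, 456 and 1 (ratio 1345, interval 240 to 53224.1). With the shared barcodes kept in CAL51, the log2 differences of KRT5, SFRP1 and VGLL1 were 6.88, 5.36 and 5.41 in place of 8.66, 6.70 and 6.30. ID4, an inhibitor of DNA binding in basal mammary cells, went the other way at 116 and 348 CPM, 3.01-fold higher in CAL51 (interval 2.77 to 3.27), as did CRYAB, a small heat shock protein, at 2.73 and 20.8 CPM (7.64-fold, interval 4.57 to 13.8). KIT, the stem cell factor receptor, stood at 102 CPM in both lines (ratio 0.998, interval 0.9055 to 1.100).

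Among cofactors of these factors, the shares called were near those of all genes. Of the 26 with at least 20 UMIs among 28 listed, 18 were within 2-fold, 4 were higher in MDAMB468 (15.8% of all genes were) and 4 in CAL51 (18.6%), with a median log2 difference of -0.61. CITED4, a CBP-binding coactivator of AP-2 factors, was 65.4-fold higher in MDAMB468 (532 and 24 UMIs, interval 43.45 to 103). GRHL2, an epithelial grainyhead factor, had 212 and 2 UMIs (ratio 313, interval 85.5 to 2598), and TLE1, a Groucho corepressor, was 2.77-fold higher (interval 2.42 to 3.17). The lowest 3 were CREBBP, NRIP1 and NCOR1, all coregulators of nuclear receptors, which were 2.95-fold (interval 2.502 to 3.495), 2.85-fold (interval 2.54 to 3.22) and 2.60-fold (interval 2.37 to 2.87) higher in CAL51. The count higher in CAL51 was 8 with TMM factors, 9 with median-of-ratios scaling and 7 with the mean over barcodes, where 21.7%, 22% and 20.8% of all genes were higher in CAL51.

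**Figure D5:**
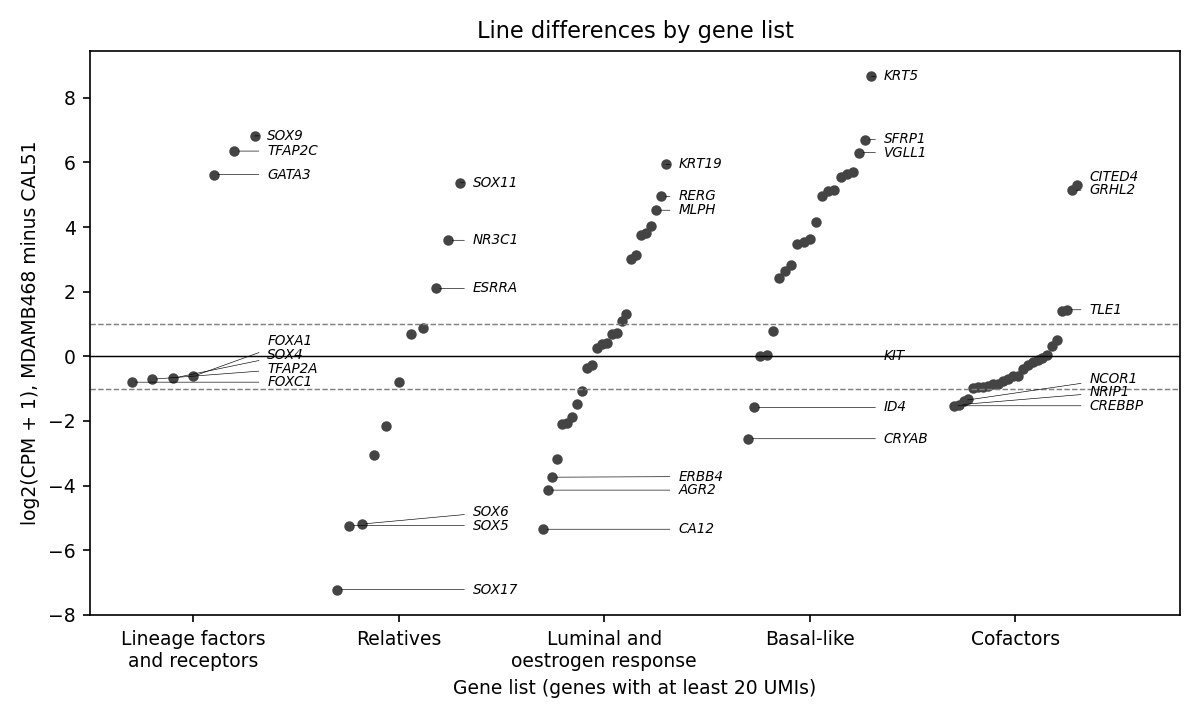
Line difference, log2(CPM + 1) in MDAMB468 minus CAL51, for genes with at least 20 UMIs in each list, ordered within the list; dashed lines mark 2-fold. The lineage factors split into 3 genes above 5 and 4 genes between 0 and -1, basal-like genes lie mostly above the upper line and cofactors mostly between the lines.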

How the data were processed

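The authors deposited a matrix of raw UMI counts, whole numbers, for 1683 barcodes, and STARsolo is named in the submitters' processing notes, without a version. Genome build, annotation, strand setting and barcode selection are not specified (not given in the sources used here). Deposited barcode names, which carry no unit or score, gave the cell line of each barcode. Symbols were matched by Ensembl identifier for 30730 genes, and positions came from GENCODE release 29, so they may differ from the authors' build. The 9 genes, the lists and the naming rule were chosen with earlier results of these data known. Named genes are the 9 members and, from each list, the 3 highest and 3 lowest log2 differences among genes with at least 20 UMIs; correlated genes were to be named at 0.3 or more.

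From the counts, UMIs were summed per line and scaled to CPM, with a pseudocount of 1 CPM on the log2 scale. Intervals are exact (Poisson for sums, conditional binomial for ratios, Clopper-Pearson for shares) at 95%. Each barcode was thinned to 2500 UMIs, which every barcode reached. No doublet caller was run, no barcode was removed by a quality filter and no cells were clustered. The depth was 5501900 UMIs in MDAMB468 and 16223444 in CAL51, and 3 counts correspond to 0.545 and 0.185 CPM. Alternatives covered scaling, pseudocount, UMI minimum, thinning depth and barcode sets. Calculations were tested on simulated data. The work ran in Python 3.11.15 with scipy 1.17.1, and edgeR 4.0.16 gave TMM factors only.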

Additional observations from a re-analysis of the deposited data

Results flagged for a closer look

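The 31 CAL51-labelled barcodes whose sequence also occurs in the MDAMB468 library stand outside the comparison of the lines, and GATA3 was counted in them above its level in the other CAL51 barcodes. They held 11 GATA3 UMIs among 135240 (81.3 CPM, interval 40.6 to 145.5), against 0.431 CPM (interval 0.174 to 0.889) in the 1346 other CAL51 barcodes and 78.4 CPM (interval 67.1 to 91.1) in the 31 MDAMB468 barcodes with the same sequences. TFAP2C had 3 UMIs and SOX9 had 2 UMIs in the shared barcodes, counts at or under the floor of 3. TFAP2C stood at 22.18 CPM (interval 4.575 to 64.83) there, against 82.06 CPM (interval 70.48 to 95.01) in the MDAMB468 barcodes with the same sequences. SOX9 stood at 14.79 CPM (interval 1.791 to 53.42) against 156.3 CPM (interval 140.2 to 173.8). Unlike GATA3, both lay below those MDAMB468 barcodes, yet above the upper limits of the other CAL51 barcodes (0.2274 and 0.5404 CPM). GATA3 was not alone in exceeding its level in the other CAL51 barcodes. The following listed genes were picked out after their values were seen. KRT7 had 106 UMIs and KRT5 had 40 in the shared barcodes and 0 in the other CAL51 barcodes, and KRT19 had 347 and 496. The cause was not tested.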

How the results depend on the processing

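With 1 library per line no replicate could be left out, and every value rests on a single library. No paired analysis was possible because each line has 1 sample. The 3 genes called higher in MDAMB468 and the count of 0 higher in CAL51 moved by less than 1.5 times in each alternative run. The cofactors called higher in CAL51, 4 as reported, numbered 8 with TMM factors, 9 with median of ratios and 7 with the mean over barcodes. The relatives called higher in MDAMB468 went from 3 to 5 with every gene of at least 1 UMI, and the basal-like genes from 16 to 10 with at least 100 UMIs, as fewer or more genes were counted. TMM and median-of-ratios scaling moved the median of all genes by -0.12 and -0.13. Among the 9 genes, the pseudocount moved the log2 differences of GATA3 (2.93 to 7.03), SOX9 (3.81 to 8.86) and TFAP2C (3.18 to 9.65) most. Listed genes at or near 0 in a line moved as far, such as KRT5 (5.37 to 11.98) and SOX17 (-10.54 to -3.99). A pseudocount of 0.1 CPM put ESR1, with 3 UMIs, at 2.69. With shared barcodes kept in CAL51, 5 of the 33 log2 differences moved beyond their counting intervals, to 5.07 for GATA3, 6.88 for KRT5, 5.36 for SFRP1, 5.41 for VGLL1 and 5.20 for KRT19. Leaving out satellites moved none of the 33 named genes' log2 differences beyond their counting intervals. Thinning to 1000 UMIs and no thinning moved 11 and 10 of the 18 shares beyond theirs.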

Other observations

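One marker of another cell type stood above the rest of its list in MDAMB468. KDR, which encodes the VEGF receptor of endothelial cells, had 102 UMIs in 54 of 306 MDAMB468 barcodes (18.5 CPM, interval 15.1 to 22.5) and 2 UMIs in CAL51. The endothelial markers PECAM1, VWF and CDH5 had 6, 0 and 0 UMIs over all 306 MDAMB468 barcodes.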
